A study of Drosophila melanogaster with 31 samples.

Results

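In embryos of *Drosophila melanogaster*, 65 of 11982 genes measured (0.542%) stood out in *ato*-expressing cells most strongly at the middle one of 3 time points. For each gene the GFP+ enrichment was taken as the mean log2 level in wild-type GFP+ cells minus that in wild-type GFP− cells. A gene was kept when its enrichment at t2 was at least 0.585, which is 1.5-fold, and at least 0.4 above its enrichment at t1 and at t3. The genes were thus selected on wild-type GFP+ and GFP− values at all 3 times, and their profiles over time are a description and were not tested. The enrichment in the ato mutant was not part of the rule and was tested. The mutant arrays entered the choice only through the probe set taken for each gene, the one with the highest mean over all 31 arrays.

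The atoGFP.7 line carries GFP under an upstream fragment of *ato*, and it is a single transgenic line. Cells from dissociated embryos were sorted by flow cytometry and profiled on Affymetrix *Drosophila* arrays, 31 in all. The mutant groups were GFP+ and GFP− cells of atoGFP.7 embryos that also carry ato1, a presumed null allele, collected at t1 only (4 arrays each). The wild-type groups were GFP+ and GFP− cells of atoGFP.7;w118 embryos (the genotype as labelled) at t1 (5.75 to 6.75 h after egg laying), t2 (6.75 to 7.75 h) and t3 (7.75 to 8.75 h), with 4 arrays each except t3 GFP− cells, which have 3. These ages are equivalents for growth at 25C, since embryos were kept cooler after laying. The mutant line had been backcrossed to the wild-type atoGFP.7 stock, and its GFP+ sorts yielded fewer cells. Besides chordotonal precursors, the GFP+ pool includes other *ato*-expressing cells such as those of the larval eye.

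*ato* encodes the proneural transcription factor that commits ectodermal cells to chordotonal organs, the stretch receptors of the fly. The precursors leave the epithelium, divide and then build ciliated neurons and their support cells. In the embryo most epidermal cells stop replicating DNA and rest in G1 at about this stage, whereas neural precursors go on cycling. DNA replication begins with licensing of origins by the origin recognition complex, Cdc6 and the MCM helicase, and cyclin E drives entry into S phase.

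*ato* itself had enrichments of 3.64, 3.80 and 1.69 at t1, t2 and t3 in wild type, and of 4.22 in the mutant, on the log2 scale. The title and the source description of t2 GFP− replicate 4 name different cell classes, and its *ato* level of 8.70 lay among the other t2 GFP− arrays (8.55 to 8.92), with the lowest t2 GFP+ array at 12.33. The t3 arrays stood apart. The summed linear level of 9 mesoderm and muscle markers was 2256 to 4404 in GFP+ cells at t3, against 4290 to 5850 in GFP− cells. It was 571 to 928 in GFP+ cells at t1 and 798 to 1037 at t2. GFP+ replicate 3 held the highest t3 sum, 4404 against 2256, 2564 and 2418 in the other t3 GFP+ arrays, and also the highest sum of 13 haemocyte markers (8294 against 4894 to 5748). Its array weight of 0.418 was the lowest of the 31, with t3 GFP+ replicate 4 (0.432) and t3 GFP− replicate 3 (0.460) close to it. The part of these cells in the t3 values below was not tested.

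The median enrichment of the 65 genes was 0.42, 0.95 and 0.05 at t1, t2 and t3, where that of all genes was 0.01 at each time. Of the 65, 19 already reached 1.5-fold enrichment at t1 and 15 still did at t3. At t3 30 were below 0, a level that the median of all genes also lay close to. In bulk pools such as these, fewer cells with a transcript and less of the transcript per cell cannot be told apart. A further 351 genes reached 1.5-fold at t2 without meeting the margin, and their medians were 0.68 at t1, 0.82 at t2 and 0.56 at t3. Of all 416 genes at 1.5-fold at t2, 248 had their highest enrichment at t2, the 65 among them, so many fell short only of the margin. By known role, assigned after the values had been seen, the 65 comprise 18 genes of DNA replication and S phase, 4 of DNA repair, 5 transcription regulators of patterning, 2 FGF ligands, 3 enzymes of ecdysteroid metabolism, 3 ciliary genes and 30 others, and 19 of the 65 have only a CG number. The peak height, which is the enrichment at t2 minus the higher of those at t1 and t3, ranged from 0.40 to 1.97. A second probe set naming the gene alone was present for 4 of the 65 genes, *CG3119*, *gt*, *Cyp18a1* and *EndoU*. Its peak height was 0.23, 0.15, 0.14 and 0.10, so all 4 were highest at t2 but 0 met the rule. Of the 65, 62 had a mean log2 level of at least 6 in at least 1 of the 8 groups. Without t3 GFP+ replicate 3 the median at t3 was 0.07 and 61 of the 65 were kept. The 4 lost were *Root*, *dnd*, *Lerp* and *CG15083*.

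**Figure D1:**
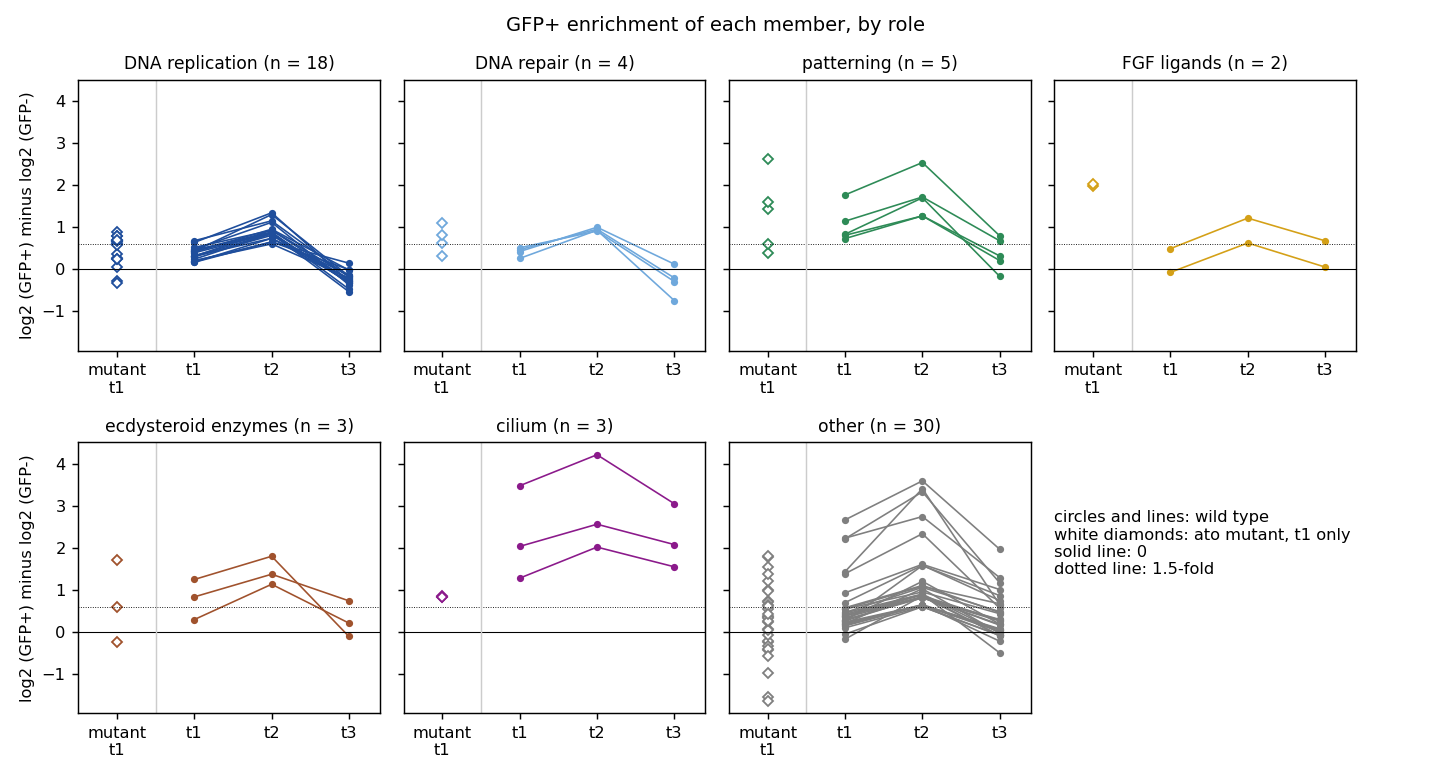
GFP+ enrichment (log2 level in GFP+ minus GFP− cells, vertical axis) of each of the 65 genes in the ato mutant at t1 (white diamonds) and in wild type at t1, t2 and t3 (circles joined by lines), with a panel for each role. The 18 replication genes lie between 0.60 and 1.34 at t2 and between −0.54 and 0.14 at t3, whereas the 3 ciliary genes stay between 1.55 and 3.05 at t3.

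Replication genes formed the largest group with a shared role. They include primase and DNA polymerase alpha (*Prim1*, *Prim2*, *PolA2*), subunits of polymerases delta and epsilon (*PolD2*, *PolE1*, *PolE2*), the origin recognition subunits *Orc1*, *Orc2*, *Orc4* and *Orc5*, the licensing factors *Cdc6*, *Mcm2* and *Mcm10*, the clamp loader subunit *RfC38* and the fork protein *Claspin*. *CycE* (cyclin E), *Rbf2* (a pocket protein that binds E2F) and *Ts* (thymidylate synthase) complete the 18. Several of these names were added to the text after their values had been seen. Their median enrichment was 0.35, 0.85 and −0.25 at t1, t2 and t3, and 17 of the 18 were below 0 at t3. *Rbf2*, at 0.14, was the exception.

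*Prim1*, the catalytic primase subunit, had the sixth largest peak height of all, 0.87. At t2 its log2 level was 9.78, 9.93, 10.26 and 10.05 in the GFP+ arrays, against 8.53, 8.51, 8.91 and 8.89 in the GFP− arrays. At t1 it was 10.06, 10.09, 10.20 and 10.11 in GFP+ cells, against 9.66, 9.77, 9.68 and 9.63 in GFP− cells, and at t3 it was 7.96, 8.16, 8.53 and 8.81 in GFP+ cells, against 8.58, 8.54 and 8.47 in GFP− cells. The GFP+ level thus stayed near 10 at both t1 and t2, while the GFP− level was lower at t2 than at t1 by about as much as the enrichment grew. At t3 the groups overlapped.

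*PolA2*, a subunit of the polymerase alpha–primase complex, was lower at t2 than at t1 in both pools. Its t2 levels were 8.92, 9.07, 9.48 and 9.24 in GFP+ cells, against 7.80, 7.69, 7.83 and 8.03 in GFP− cells, and its t1 means were 10.06 ± 0.10 in GFP+ cells and 9.43 ± 0.11 in GFP− cells (SD, n = 4 each). At t3 the lower GFP+ arrays lay below the GFP− arrays and the others among them, with 7.44, 7.86, 8.16 and 8.20 in GFP+ cells, against 8.19, 8.30 and 8.12 in GFP− cells. The lowering between t1 and t2 was 0.88 in GFP+ cells and 1.59 in GFP− cells. *Mcm2*, a subunit of the replicative helicase, followed the same order, with t2 levels of 11.45, 11.63, 11.71 and 11.75 in GFP+ cells, against 10.87, 10.81, 10.81 and 10.85 in GFP− cells. Its t1 means were 12.59 ± 0.08 in GFP+ cells and 12.30 ± 0.07 in GFP− cells (SD, n = 4 each).

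*CycE* differed from these in that its GFP+ level was highest at t2. It stood at 11.38, 11.38, 11.46 and 11.28 in t2 GFP+ cells, against 10.47, 10.52, 10.31 and 10.49 in t2 GFP− cells. The GFP+ means were 10.95 ± 0.15 at t1 and 10.34 ± 0.45 at t3 (SD, n = 4 each), whereas the GFP− means of 10.65, 10.45 and 10.51 at t1, t2 and t3 lay within 0.20 of each other. *Cdc6*, which loads the helicase, stood at 9.83, 9.84, 10.12 and 10.12 in t2 GFP+ cells, against 9.13, 9.06, 9.11 and 9.23 in t2 GFP− cells.

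**Figure D2:**
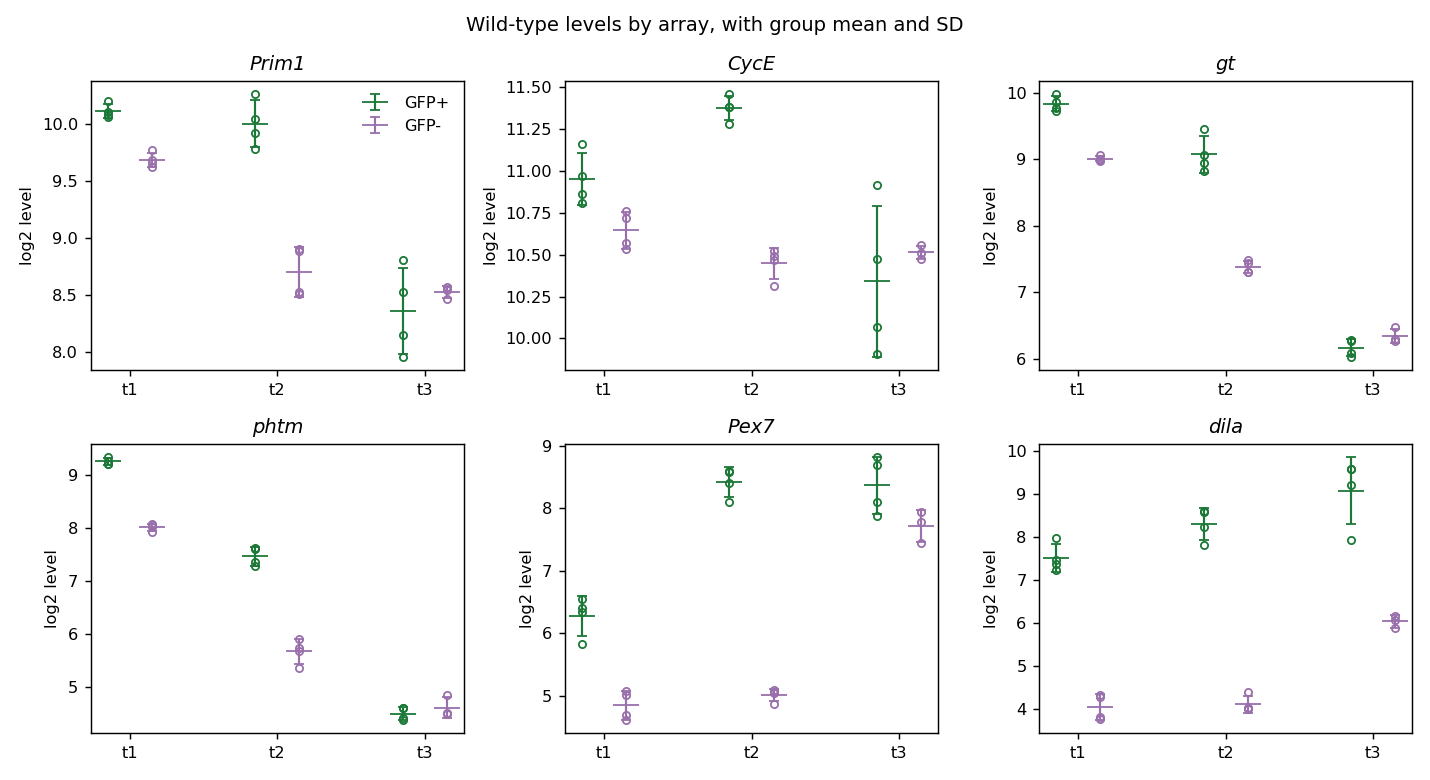
Log2 level (vertical axis) of 6 genes in each wild-type GFP+ array (green, left) and GFP− array (purple, right) at t1, t2 and t3, with group means and SD. *CycE* and *Pex7* are higher in GFP+ cells at t2 than at t1, whereas *Prim1*, *gt* and *phtm* have a larger gap at t2 with a GFP− level that is lower than at t1.

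The same division holds for the 65 genes as a whole. Between t1 and t2 the mean level was lower at t2 in both pools for 32 genes, higher in both for 16, and higher in GFP+ cells with a lower level in GFP− cells for 17. The median difference between t1 and t2 was 0.03 in GFP+ cells and −0.47 in GFP− cells (0.03 in each for all genes). Among the 18 replication genes it was −0.39 in GFP+ cells and −0.98 in GFP− cells, and all 18 were lower in GFP− cells at t2 than at t1. Over all 11982 genes, 5370 were lower at t2 than at t1 in GFP+ cells and 5288 in GFP− cells. Of the 65 genes, 25 had their highest GFP+ level at t2 (38.5%), as did 40.2% of all genes. The peak of enrichment went with a peak of the GFP+ level in these 25 genes, a share close to that of all genes.

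Between t2 and t3 the GFP+ mean was lower at t3 for 54 of the 65 genes, and for 7320 of all 11982 genes. The median difference was −0.84 for the 65 (−0.09 for all genes). Of these 54, 23 had a higher GFP− level at t3 and 31 a lower one. The other 11 were higher at t3 in both pools, among them *dila*, *Root* and *dnd*. For the replication genes the median difference was −1.15 in GFP+ cells and 0.19 in GFP− cells. *Orc1* was an exception, with 0.04 in GFP+ cells and 1.37 in GFP− cells.

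**Figure D3:**
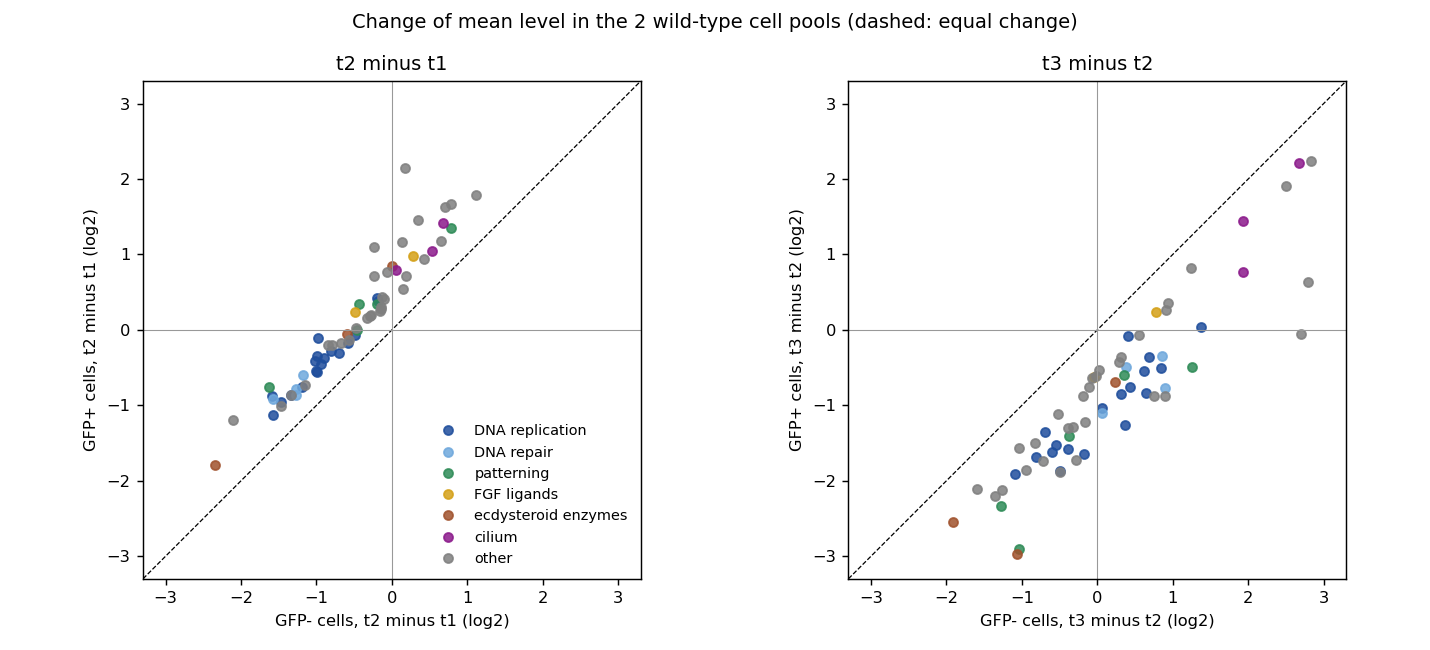
Difference of mean log2 level between successive time points in wild-type GFP+ cells (vertical axis) and GFP− cells (horizontal axis), a point for each of the 65 genes, coloured by role. All points lie above the line of equal change for t2 minus t1 and below it for t3 minus t2, as the rule requires, and 32 of the 65 are below 0 in both pools in the first panel.

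The rest of the replication machinery was read from lists. Of 12 replication genes listed with earlier results known, 6 are among the 65, and all 12 had their highest enrichment at t2, as did 32.7% of all genes. In limma fits of the wild-type arrays, 2 of the 12 passed as higher in GFP+ cells at t1 (2.45% of all genes did), 8 at t2 (3.29%) and 0 at t3 (2.97%). None passed as lower at t3 (4.36% of all genes did), although at an unadjusted p under 0.05 there were 10 of the 12 lower (18.6% of all genes) and 0 higher. The rule used these contrasts, so the counts are a description. Wider lists of origin licensing and of the replisome, drawn up after the values were seen, hold 37 measured genes, of which 15 are among the 65, 34 had their highest enrichment at t2 and 35 were below 0 at t3. *Mcm3* fell just outside the rule with a peak height of 0.396, as did *firl* at 0.398 and *CG10336* at 0.395. *Nnk* (0.41), *Ts* (0.40) and *DNAlig4* (0.40) were just inside it. *PCNA*, the sliding clamp, had enrichments of 0.30, 0.57 and −0.29 at t1, t2 and t3. Of 10 mitotic genes, a list also drawn up afterwards, 0 passed at t2 in limma (with no adjustment, 5 were higher and 0 lower at p under 0.05, where 16.1% of all genes were higher), and their median enrichment at t2 was 0.20.

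The 4 repair genes are *Irbp* (Ku70) and *DNAlig4*, which act in end joining, *mu2*, which acts at chromosome ends, and *tos*, related to exonuclease 1. Their enrichments resembled those of the replication genes, with medians of 0.44, 0.94 and −0.25 at t1, t2 and t3. All 4 had a lower mean level at t2 than at t1 in both pools and a lower one at t3 than at t2 in GFP+ cells.

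Of the patterning regulators, *gt* is a gap gene that is expressed again in the embryonic head, *kni* and *knrl* are related nuclear receptors, *scro* is an NK-2 homeobox gene and *insv* encodes a repressor that acts with Su(H) on Notch targets. All 5 reached 1.5-fold enrichment at t1 as well, and their median was 0.83 at t1, 1.70 at t2 and 0.31 at t3. *gt* stood at 8.83, 8.94, 9.46 and 9.07 in t2 GFP+ cells, against 7.30, 7.44, 7.48 and 7.30 in t2 GFP− cells. At t1 its means were 9.84 ± 0.11 in GFP+ cells and 9.01 ± 0.04 in GFP− cells, so the level at t2 was lower in both pools, and at t3 the pools had 6.17 ± 0.13 (n = 4) and 6.34 ± 0.11 (SD, n = 3). A second probe set of *gt* had a peak height of 0.15 and did not meet the rule. *kni* was almost level in GFP+ cells, with 11.07, 11.08, 11.08 and 11.07 at t1 and 10.97, 11.05, 11.09 and 11.18 at t2, against GFP− levels of 10.26, 10.27, 10.28 and 10.27 at t1 and 9.84, 9.95, 9.73 and 9.70 at t2. *knrl*, in contrast, was higher at t2 than at t1 by 1.36 in GFP+ cells and by 0.78 in GFP− cells.

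Ecdysteroids are the moulting hormones of insects. *phtm* and *dib* encode P450 enzymes of ecdysone synthesis, and *Cyp18a1* encodes the P450 that inactivates the hormone. Of the 65 genes, *phtm* had the largest lowering between t1 and t2 in each pool. It stood at 7.29, 7.36, 7.63 and 7.61 in t2 GFP+ cells, against 5.68, 5.75, 5.36 and 5.91 in t2 GFP− cells, and at 9.27, 9.22, 9.21 and 9.35 in t1 GFP+ cells, against 8.02, 7.92, 8.08 and 8.05 in t1 GFP− cells. *Cyp18a1*, its neighbour on the chromosome, ran the other way in GFP+ cells, with means of 5.68 at t1, 6.52 at t2 and 5.84 at t3, while GFP− cells had 5.39, 5.39 and 5.63. Its second probe set had a peak height of 0.14. Among the other listed genes of ecdysone synthesis, *sad* (1.83, 1.52 and 0.74 at t1, t2 and t3) and *shd* (1.91, 1.65 and 0.53) had their highest enrichment at t1.

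The FGF ligands *pyr* and *ths* activate the receptor Heartless in mesoderm. They are neighbours on the chromosome. *pyr* stood at 8.54, 8.50, 8.66 and 8.58 in t2 GFP+ cells, against 7.24, 7.42, 7.36 and 7.42 in t2 GFP− cells. *ths* was dimmer, with 6.15, 6.38, 6.35 and 6.39 in t2 GFP+ cells, against 5.63, 5.52, 5.93 and 5.70 in t2 GFP− cells, and was not enriched at t1 (−0.08) or t3 (0.05). The FGF *bnl*, a ligand of another receptor, had 0.60, 0.51 and 0.48 at t1, t2 and t3.

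The ciliary genes are *dila* and *Root*, whose proteins lie at the basal body and the ciliary rootlet, and *dnd*, the fly Arl3. Their GFP+ levels were higher at each successive time point. *dila* had the largest enrichment at t2 of all 65 genes, 4.21. It stood at 7.81, 8.24, 8.59 and 8.61 in t2 GFP+ cells, against 4.01, 4.02, 4.40 and 3.99 in t2 GFP− cells. At t3 it stood at 9.22, 9.59, 7.94 and 9.59 in GFP+ cells, against 6.17, 6.07 and 5.88 in GFP− cells, so both pools were higher than at t2 and the gap was smaller. *Root* had t3 levels of 9.70, 9.90, 8.22 and 9.85 in GFP+ cells, against 7.33, 7.37 and 7.34 in GFP− cells. Replicate 3 was the low array in both genes, and without it the t3 enrichment was 3.43 for *dila* and 2.47 for *Root*, and the peak heights were 0.74, 0.08 for *Root* and 0.18 for *dnd*. Of the 20 listed genes of intraflagellar transport and the BBSome, *dnd* alone is among the 65. The list's median enrichment was 0.19, 0.20 and 1.37 at t1, t2 and t3, and 17 of the 20 passed as higher at t3.

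Among the 30 other genes, *Pex7*, an import receptor of peroxisomes, had the largest peak height of the 65, 1.97. It stood at 8.10, 8.40, 8.58 and 8.60 in t2 GFP+ cells, against 4.87, 5.06, 5.09 and 5.04 in t2 GFP− cells. GFP+ cells had a mean of 6.28 ± 0.32 at t1 and 8.37 ± 0.45 at t3 (SD, n = 4 each), so the smaller gap at t3 came with a GFP− mean of 7.72 ± 0.26 (SD, n = 3), against 5.01 in GFP− cells at t2. *CG9095* (1.12) behaved alike, with a GFP− level higher by 2.80 at t3 than at t2. *CG11275* (0.95) and *CG5597* (0.93) were lower in GFP+ cells and higher in GFP− cells at t3 than at t2. *out*, a transporter of the monocarboxylate family, had a peak height of 0.92 with levels that were lower at t2 than at t1 by 1.19 in GFP+ cells and 2.11 in GFP− cells. *CG12496* and *CG42717*, *Sodh2* (a sorbitol dehydrogenase), *EndoU* (of the endoribonuclease U family), *Lerp* (a lysosomal enzyme receptor), *CG7296*, *CG11164* and *Lint-O* complete the 25 largest, with heights of 0.58 to 0.84. At t2 every GFP+ array lay above every GFP− array for all 65 genes (12.7% of all genes), at t1 for 45 (10.5%) and at t3 for 14 (9.55%), and at t3 5 were separate in the other direction (12.0%). These counts rest on the values the rule used and are a description.

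In the annotation, several of the 65 lie beside each other. No other coding gene lies between *Prim1* and *CG7083*, *Cyp18a1* and *phtm*, *CG11164* and *DNAlig4*, or *ths* and *pyr* (0 between each pair), and 1 lies between *gt* and *CG12496* and between *knrl* and *kni*. Neighbours could differ in their levels. Between t1 and t2, *gt* was lower in GFP+ cells by 0.76 and *CG12496* higher by 1.67.

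The mutant arrays asked whether these genes were also enriched in GFP+ cells without *ato* function, at the age of t1. Per the paper, most mutant GFP+ cells are not specified as chordotonal precursors and stay ectodermal. It adds that some chordotonal neurons still form in the mutant, owing to redundancy with the related gene *cato*. In limma, 31 of the 65 genes (47.7%) passed as higher in mutant GFP+ than in mutant GFP− cells at 1.5-fold and an adjusted p of at most 0.01, where 5.89% of all genes did. Another 3 (4.62%) passed as lower, where 8.18% of all genes did, and 31 passed in neither direction. Over all genes 706 passed as higher and 980 as lower, a split that became 1399 and 725 with each array centred on ribosomal protein genes. In 41 of the 65 every GFP+ array lay above every GFP− array, as in 19.7% of all genes. The median difference was 0.60, against 0.04 for all genes. Of the 351 other genes with 1.5-fold enrichment at t2, 238 (67.8%) passed as higher and 3 as lower, with a median of 0.88. The difference between these shares was not tested.

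**Figure D4:**
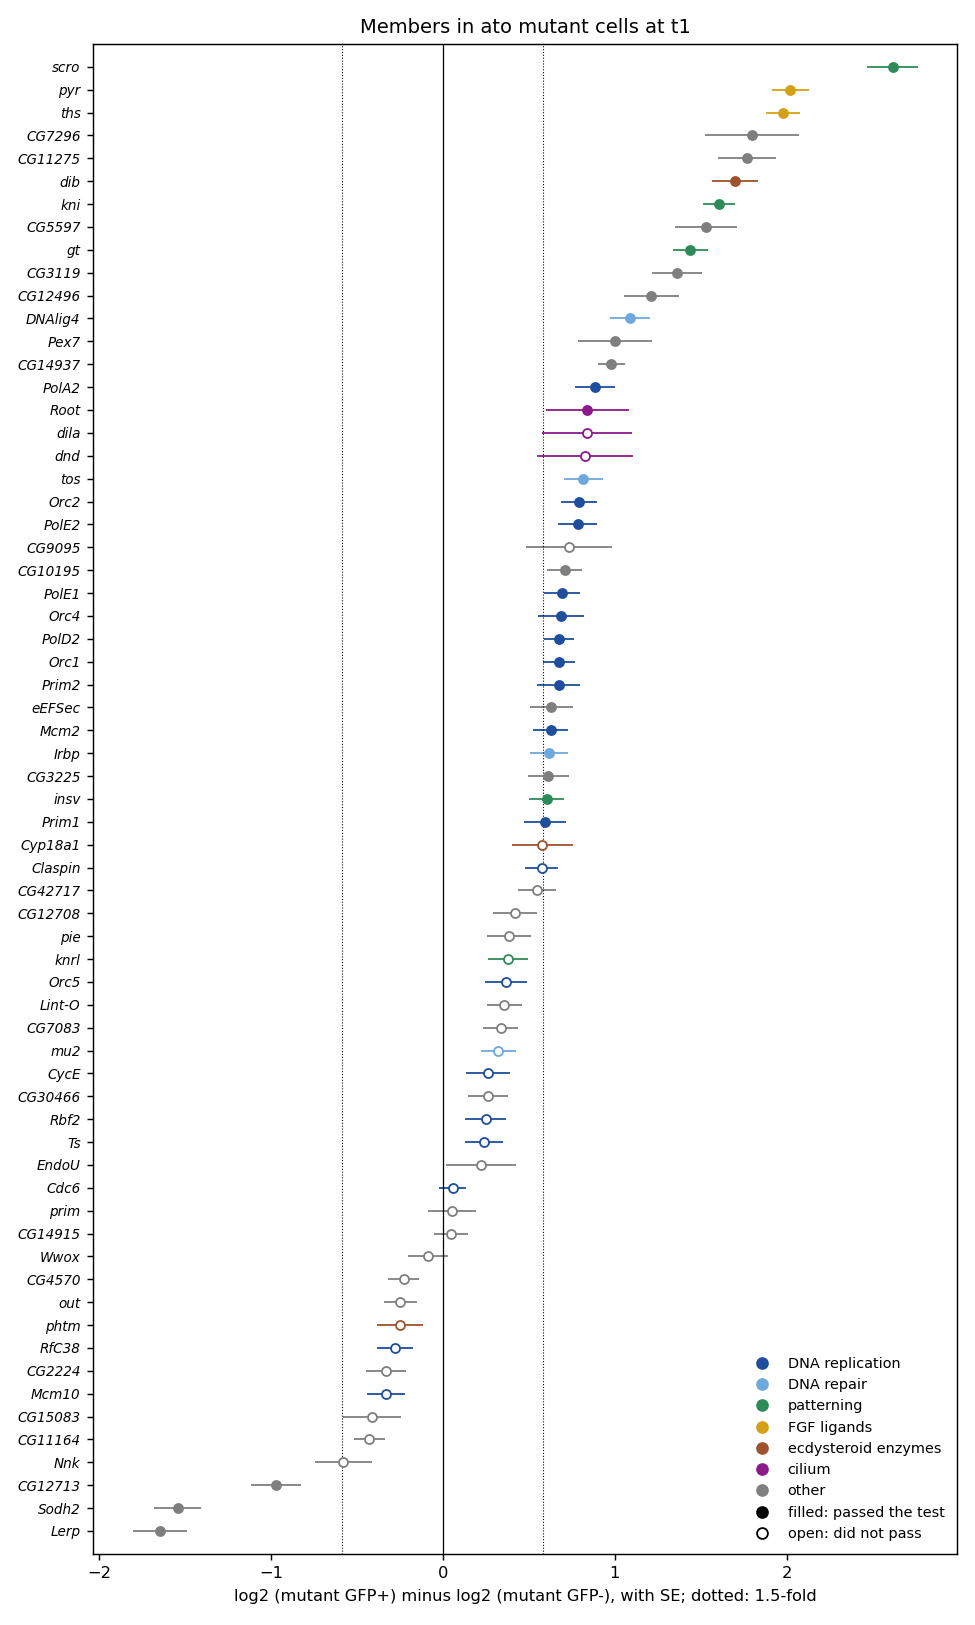
Difference of log2 level between mutant GFP+ and mutant GFP− cells at t1 (horizontal axis, with SE of the limma model) for the 65 genes, ordered by value and coloured by role. Filled points passed the test; 31 are higher, led by *scro* at 2.62, and 3 are lower, with *Lerp* at −1.65.

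Only *scro* had a larger difference in the mutant than the FGF ligands. *pyr* stood at 9.24, 9.16, 9.26 and 9.27 in mutant GFP+ cells, against 7.09, 7.07, 7.26 and 7.42 in mutant GFP− cells, a log2 difference of 2.02 (SE 0.11, limma adjusted p = 1.1e-15). *ths* stood at 7.42, 7.42, 7.20 and 7.75 in mutant GFP+ cells, against 5.40, 5.55, 5.41 and 5.53 in mutant GFP− cells (1.98, SE 0.10, adjusted p = 1.8e-16). Wild-type GFP+ cells of the same age had lower levels of both, 8.33 ± 0.08 for *pyr* and 5.33 ± 0.15 for *ths* (SD, n = 4 each). Since the rule required an enrichment at t1 at least 0.4 below that at t2, the gap between genotypes at t1 was not tested. Among the 11 listed secreted signals 7 passed as higher in the mutant, *hh* (2.90), *dpp* (1.99) and *bnl* (1.53) among them, and 1, *Actbeta*, as lower (−1.99).

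Of the patterning regulators, *scro* (2.62, SE 0.15, adjusted p = 3.5e-15), *kni* (1.61, SE 0.09) and *gt* (1.44, SE 0.10) passed in the mutant. *kni* stood at 11.40, 11.13, 11.40 and 11.37 in mutant GFP+ cells, against 9.90, 9.47, 9.82 and 9.69 in mutant GFP− cells, and *gt* at 9.90, 10.03, 9.97 and 9.65, against 8.38, 8.44, 8.64 and 8.33. *insv* passed narrowly (0.60, SE 0.10), and it dropped below 1.5-fold without GFP+ replicate 1 (0.58) or GFP− replicate 4 (0.55). *knrl* had 0.38 (adjusted p = 0.013) and did not pass. Of the 17 listed head and antennal patterning genes, 13 passed as higher and 2 as lower in the mutant.

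**Figure D5:**
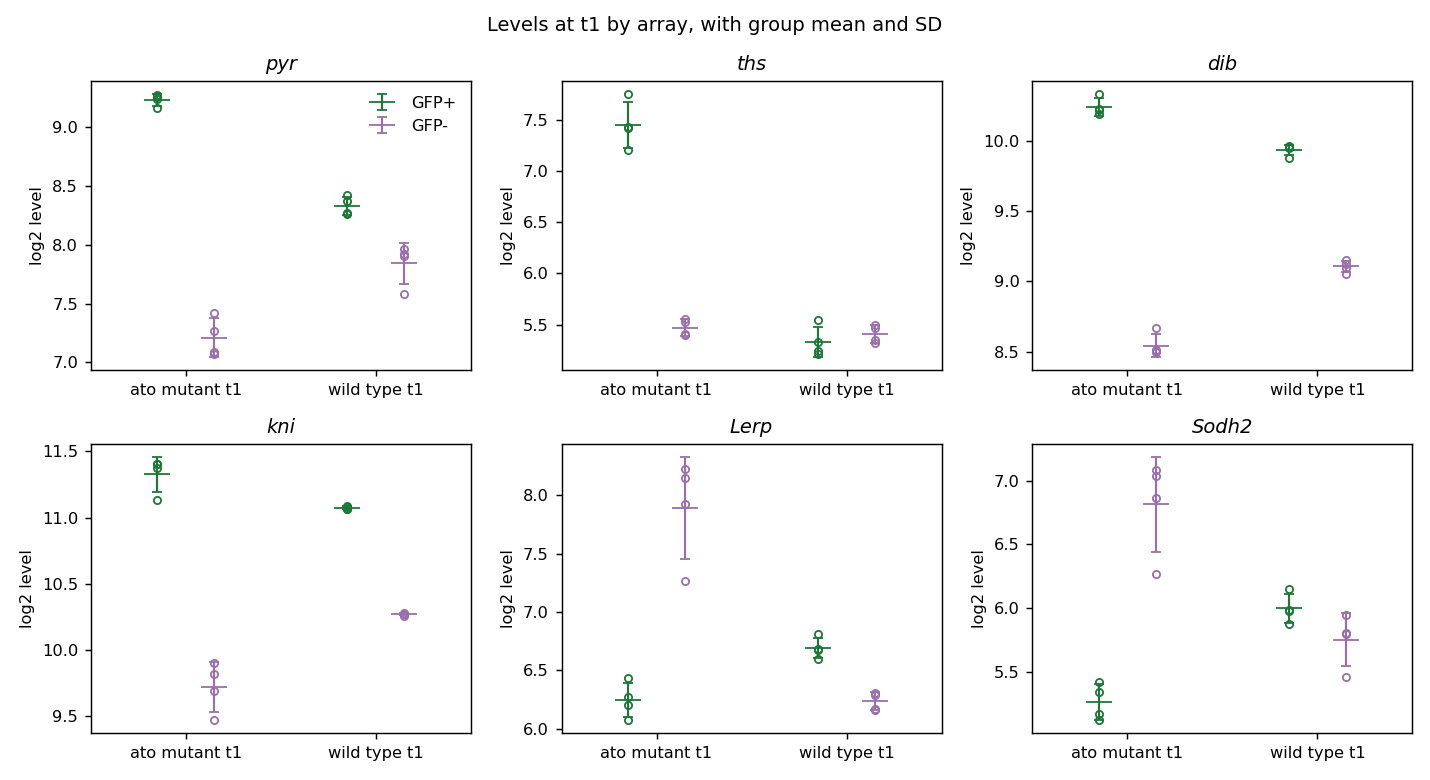
Log2 level (vertical axis) of 6 genes in each GFP+ array (green, left) and GFP− array (purple, right) of ato mutant and wild-type embryos at t1, with group means and SD. Mutant GFP+ cells have *pyr* at 9.16 to 9.27 and *ths* at 7.20 to 7.75, above every other t1 group, and *Lerp* and *Sodh2* are highest in mutant GFP− cells.

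Of the replication genes 10 of 18 passed as higher in the mutant (5.89% of all genes did) and 0 as lower (8.18%). The median difference was 0.61. The 10 that passed are *PolA2*, *Orc2*, *PolE2*, *PolE1*, *Orc4*, *PolD2*, *Orc1*, *Prim2*, *Mcm2* and *Prim1*. These 10 did not pass when tested against 1.5-fold itself. That includes *PolA2*, which had the largest difference of them (limma adjusted p = 0.13 in that test). *PolA2* stood at 9.65, 9.76, 9.59 and 9.70 in mutant GFP+ cells, against 8.83, 8.75, 8.72 and 8.86 in mutant GFP− cells (0.89, SE 0.12, adjusted p = 3.4e-07). *Mcm2* stood at 12.34, 12.31, 12.41 and 12.27 in mutant GFP+ cells, against 11.65, 11.70, 11.75 and 11.74 in mutant GFP− cells (0.63, SE 0.10). *Prim1* stood at 9.59, 9.71, 9.51 and 9.47, against 8.90, 9.11, 8.98 and 8.91 (0.59, SE 0.12), and it dropped below 1.5-fold when GFP− replicate 1 (0.57) or 4 (0.57) or GFP+ replicate 2 (0.55) was left out. The S phase regulator *CycE* had 0.26 (adjusted p = 0.14) and *Cdc6* 0.06 (adjusted p = 0.70), which was −0.01 after cyclic loess. *Cdc6* stood at 10.59, 10.52, 10.66 and 10.64 in mutant GFP+ cells, against 10.62, 10.67, 10.53 and 10.37 in mutant GFP− cells, so its groups overlapped. *Mcm10* (−0.33) and *RfC38* (−0.28) were below 0 without passing. Of the 12 listed replication genes 6 passed as higher and 0 as lower, and at p under 0.05 with no adjustment 10 were higher (23.5% of all genes) and 0 lower. Of the repair genes *DNAlig4* (1.09), *tos* (0.82) and *Irbp* (0.62) passed, *Irbp* not without GFP− replicate 1 (0.54), and *mu2* had 0.32.

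Among the ecdysteroid enzymes *dib* passed, with 10.33, 10.22, 10.23 and 10.19 in mutant GFP+ cells, against 8.67, 8.50, 8.50 and 8.51 in mutant GFP− cells (1.70, SE 0.13, adjusted p = 8.0e-12). *phtm* did not (−0.25, SE 0.13, adjusted p = 0.19). It stood at 6.61, 6.69, 6.39 and 5.82 in mutant GFP+ cells, against 6.66, 6.74, 6.71 and 6.41 in mutant GFP− cells, and these levels lay below those of both wild-type pools at t1. *Cyp18a1* had 0.58 (adjusted p = 0.013), and it passed without GFP+ replicate 2 (0.65). Of the 9 listed genes of ecdysone synthesis 4 passed as higher, *sad* with 2.70.

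The ciliary genes had mutant differences of 0.83 to 0.84, against wild-type enrichments of 1.28 to 3.47 at t1. *Root* passed (0.84, SE 0.24, adjusted p = 0.0078) but not with any of 6 of the 8 mutant arrays left out (adjusted p from 0.011 to 0.047). *dila* (0.84, SE 0.26, adjusted p = 0.015) and *dnd* (0.83, SE 0.28, adjusted p = 0.024) did not pass. A replicate block, which was not part of the main fit, pairs GFP+ and GFP− arrays of the same number. With it *dila* and *dnd* passed in limma (adjusted p = 0.0018 for *dila* and 0.00059 for *dnd*), and so did *CG9095* (0.73, adjusted p = 7.6e-07). All 3 also passed without GFP+ replicate 1 (1.05 for *dila*, 1.07 for *dnd* and 0.95 for *CG9095*). *dila* stood at 4.40, 4.71, 5.41 and 5.57 in mutant GFP+ cells, against 4.08, 4.30, 4.11 and 4.25 in mutant GFP− cells. *Root* stood at 5.39, 5.76, 6.12 and 6.35 in mutant GFP+ cells, against 4.61, 5.09, 5.19 and 5.38 in mutant GFP− cells. *Pex7* varied among the mutant GFP+ arrays in the same order, with 5.13, 5.77, 6.22 and 6.55, against 4.77, 5.19, 4.75 and 4.96 in mutant GFP− cells (1.00, SE 0.22, adjusted p = 0.00046). GFP+ replicate 1 was thus the lowest and replicate 4 the highest for all 3 of these genes.

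The 3 genes that passed as lower in the mutant were *Lerp*, *Sodh2* and *CG12713* (−0.97, SE 0.15). *Lerp* stood at 6.20, 6.08, 6.43 and 6.27 in mutant GFP+ cells, against 7.93, 8.23, 8.15 and 7.27 in mutant GFP− cells (−1.65, SE 0.16, adjusted p = 5.9e-10). In wild type at t1 it had 6.68, 6.68, 6.81 and 6.60 in GFP+ cells, against 6.29, 6.16, 6.31 and 6.17 in GFP− cells. The mutant GFP− level was therefore the highest of the 4, and GFP− replicate 4 was the lowest array of that group. *Sodh2* was also highest in mutant GFP− cells, with 5.35, 5.42, 5.13 and 5.17 in mutant GFP+ cells, against 7.03, 7.08, 6.87 and 6.27 in mutant GFP− cells (−1.54, SE 0.14, adjusted p = 1.4e-10). Its wild-type levels at t1 were 5.98, 6.15, 5.88 and 5.99 in GFP+ cells, against 5.95, 5.81, 5.80 and 5.46 in GFP− cells.

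Outside these roles the largest mutant differences were those of *CG7296* (1.80, SE 0.27), *CG11275* (1.77, SE 0.17), *CG5597* (1.53, SE 0.18) and *CG3119* (1.36, SE 0.15), all of which passed. The second probe set of *CG3119* had 0.32, under the 1.5-fold limit. *CG42717* had 0.55 and did not pass, but did without GFP− replicate 3 (0.60). *Nnk* had −0.58 and passed as lower without GFP+ replicate 1 (−0.69) or GFP− replicate 4 (−0.70). The mesoderm markers, which had mostly lower levels in GFP+ cells, summed to 296 to 417 in mutant GFP+ cells, against 5947 to 6735 in mutant GFP− cells, so the mutant pools were at least as far apart in these markers as the wild-type pools at t1.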

How the data were processed

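The deposited values are log2 expression levels of 18952 probe sets on 31 arrays, made by the authors with RMA and quantile normalisation, so a level is relative to the other arrays. Per the labels, labelling was 1-cycle, whereas the methods describe 2 cycles. The methods state that samples were independent. No array was left out, and t2 GFP− replicate 4 was placed by its title.

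After removal of 183 control probe sets, 18769 were fitted in limma 3.58.1 (R 4.3.3) with the 8 group means and Benjamini-Hochberg adjustment over all of them. A call needed 1.5-fold and an adjusted p of at most 0.01. A gene was its probe set with the highest mean among those naming 1 gene in the platform annotation (13647 probe sets with 1 gene, 402 with several, 4720 with none). Neighbours were read from the RefSeq annotation (release 6). The fit and the rule were tested on simulated data.

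The text names the 25 genes with the largest peak height, those in the gene lists, up to 10 called each way in the mutant, and the 3 on each side of the margin. Members and lists were chosen with earlier results of these data known, and roles and wider lists after the values were seen. Mutant GFP+ and GFP− arrays of the same number deviated together (r from 0.213 to 0.299 for the 4 pairs). Mutant arrays of different number had r of at most 0.236. Only the replicate block paired the samples by number. The main fit did not, so the calls, SE and adjusted p values from it ignore any pairing. Array intensities give no read depth, and the number of arrays limits the precision.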

Additional observations from a re-analysis of the deposited data

Results flagged for a closer look

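In 119 groups of 4 arrays over the genes described by array, 7 held an array far from the rest. Chance alone marks about 1 in 20 groups. The levels were 4.40 for *dila* in wild-type t2 GFP− replicate 3, 8.22 for *Root* in wild-type t3 GFP+ replicate 3, 11.13 for *kni* in mutant GFP+ replicate 2, 7.59 for *pyr* in wild-type t1 GFP− replicate 4, 8.67 for *dib* in mutant GFP− replicate 1, 7.87 for *dib* in wild-type t3 GFP+ replicate 4 and 6.80 for *Sodh2* in wild-type t2 GFP+ replicate 1.

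For 3 genes every mutant GFP+ array lay below every mutant GFP− array at t1, whereas every wild-type GFP+ array lay above every wild-type GFP− array. The mutant log2 differences were −1.65 for *Lerp*, −0.97 for *CG12713* and −0.43 for *CG11164*, which was under the 1.5-fold limit. The wild-type values were used in choosing these genes, and the difference between genotypes was not tested.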

How the results depend on the processing

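The rule gave 143 genes in place of 65 with arrays centred on ribosomal protein genes, 105 with a margin of 0.3, 38 with a margin of 0.5, and 47 (without wild-type t2 GFP+ replicate 3) to 96 (without wild-type t2 GFP+ replicate 1) when 1 wild-type array was left out. Of the 65, 37 met it with every one of the 23 wild-type arrays left out in turn. Cyclic loess gave 49 genes, all of them among the 65, and group medians in place of means gave 66, with 56 shared. Ribosomal centring moved the median of all genes by 0.10 at t1, 0.18 at t2, 0.09 at t3 and 0.21 in the mutant. It gave 1399 genes higher in the mutant in place of 706, and at t2 in wild type 726 higher in place of 394 and 437 lower in place of 678. Testing against 1.5-fold itself left 230 higher and 546 lower in the mutant, 13 of the 65 higher in place of 31, and 117 higher and 261 lower at t2 in wild type. With 1 array left out, the counts were 636 to 791 higher and 947 to 1021 lower in the mutant, 28 to 33 of the 65 higher and 3 to 4 lower, and 357 to 434 higher and 647 to 676 lower at t2 in wild type. *Cdc6* in the mutant turned to −0.0096 after cyclic loess and to −0.0042 without mutant GFP− replicate 4. Cyclic loess left 24 of the 65 higher in the mutant, and *Prim1*, *insv*, *Irbp* and *Root* were among those lost. The replicate block gave 34, adding *CG9095*, *dila* and *dnd*, with 728 genes higher in all. The causes were not tested. Dim genes have little room below them on these arrays, so their enrichments can be understated.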
